A study of Mus with 18 samples.

Results

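The 10 genes described here carry the response to low oxygen and the handling of glucose by glycolysis. They are a fixed list of gene IDs out of the 55416 mouse Ensembl gene IDs in each count table. The choice rule names IDs and uses no measured value, but the list was drawn up with earlier results of these data known. They are Hif1a (ENSMUSG00000021109), Slc2a1 (ENSMUSG00000028645), Hk2 (ENSMUSG00000000628), Pfkfb3 (ENSMUSG00000026773), Pgk1 (ENSMUSG00000062070), Ldha (ENSMUSG00000063229), Pdk1 (ENSMUSG00000006494), Bnip3 (ENSMUSG00000078566), Vegfa (ENSMUSG00000023951) and Adm (ENSMUSG00000030790). All 10 had at least 10 counts in every library, and all 10 were tested in every comparison.

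HIF1A is the oxygen-labile subunit of hypoxia-inducible factor 1. When oxygen is plentiful it is hydroxylated, ubiquitylated and degraded, so the control lies mostly on the protein and little of it is visible in the level of its mRNA. When oxygen falls the stabilised factor switches on genes of glucose uptake, glycolysis and vascular signalling, and the other genes described here are all known targets in one tissue or another. Several of them also answer to growth factors and inflammatory signals in well oxygenated cells. The lens has no blood vessels and lives at low oxygen, and its metabolism is largely glycolytic.

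The libraries were made from lens capsules with the attached lens epithelial cells (LECs) of C57BL/6-labelled mice aged 3 to 5 months. The fiber cell mass of a lens was removed to mimic cataract surgery, which leaves the capsule and LECs in the eye, and the capsule was taken either at once (0 h) or 6 h post cataract surgery (PCS). Surgery on the other eye followed 6 h later and both capsules were then taken, so a 0 h capsule came from an animal already operated in its other eye. Wild type (WT) mice were compared with Egr1KO mice, homozygous for a germline neo cassette insertion that truncates Egr1 in every tissue, and with FosBcKO mice, whose floxed Fosb alleles were deleted in the lens by the MLR10 Cre transgene, driven by a modified alpha A crystallin promoter. Each library pooled 5 capsules, and each of the 6 groups of genotype and time had 3 libraries. The study's methods describe the Egr1KO line as of mixed background, and whether the WT mice carried Cre or a floxed allele is not given in the sources used here. The genotypes are those of the libraries so labelled, since Egr1 and Fosb themselves were not checked here.

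Each library held 9609295 to 13871592 read pairs counted on genes (median 10549904). Levels are given as CPM, a gene's counts per 1000000 gene counts of the library, and the tests further scale libraries by TMM, the trimmed mean of M values. Levels are compared between groups for the same gene only, because a longer transcript yields more reads. In pooled tissue, fewer cells of a type and less RNA per cell cannot be told apart. The share of read pairs that the counting program assigned to no annotated feature was 8.03 to 20.9% at 0 h and 20.0 to 30.5% at 6 h. Where in the genome these pairs lay, inside or outside genes, was not examined. That share moved with time in all genotypes, and its part in the differences below was not tested. A gene was called when its false discovery rate (FDR) was at most 0.05 and its change was over 2-fold.

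At 6 h PCS the members went different ways. Adm, Hk2 and Pfkfb3 were called higher in WT, Egr1KO and FosBcKO LECs alike, and Vegfa was also called higher in WT. The transcripts for the later glycolytic enzymes Pgk1 and Ldha were not called in any genotype, and no member was called lower. In WT, 4 of 10 members were called higher, where 13.5% of the 15440 genes tested were, and none was called lower, where 3.65% were. In Egr1KO 3 of 10 were called higher against 9.28% of genes and none lower against 2.69%. In FosBcKO 3 of 10 were called higher against 11.2% and none lower against 1.9%. Members were chosen with earlier results of these data known, so these shares are no test of the list. The median log2 fold change of the 10 members was 0.28 in WT, 0.29 in Egr1KO and -0.02 in FosBcKO, beside -0.02, 0.00 and 0.05 over all genes tested. The members called higher thus stood apart within a list whose middle lay near that of all genes.

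At any fold, 4 members passed the FDR as higher and 1 as lower in WT, where 16.5% and 9.72% of all genes did. The same counts in Egr1KO were 4 and 1, beside 12.1% and 9.04%. In FosBcKO they were 4 and 3, beside 14.1% and 7.7%. The members that passed as lower without reaching 2-fold were Hif1a, Pdk1 and Bnip3, the transcription factor subunit and a pair of proteins that act on mitochondria.

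Slc2a1 encodes GLUT1, the carrier that brings glucose into the cell. In WT it ranged from 573 to 651 CPM at 0 h and from 767 to 1181 CPM at 6 h. In Egr1KO it ranged from 652 to 926 CPM and then from 1023 to 1438 CPM. In FosBcKO it ranged from 709 to 878 CPM and then from 1025 to 1054 CPM. Every 6 h library thus lay above every 0 h library of its genotype, but the shift was below 2-fold in each. It rose 1.75-fold in Egr1KO (log2 fold change 0.81 ± 0.19 SE, FDR = 0.0216), a result that was lost without the Egr1KO 0 h library 2 (FDR = 0.0957) or 3 (FDR = 0.119). In WT the log2 fold change was 0.51 (95% interval -0.03 to 1.05, FDR = 0.141) and in FosBcKO it was 0.35 (-0.03 to 0.73, FDR = 0.165). Without the WT 6 h library 3 the WT change passed, at 0.68 (FDR = 0.00733).

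Hk2 encodes hexokinase 2, the inducible enzyme that traps glucose by phosphorylating it. In WT the 3 libraries read 199, 199 and 233 CPM at 0 h and 1209, 1123 and 941 CPM at 6 h. In Egr1KO they read 244, 189 and 176 CPM at 0 h and 631, 1249 and 1049 CPM at 6 h. In FosBcKO they read 153, 154 and 166 CPM at 0 h and 533, 584 and 388 CPM at 6 h. The times were wide apart in each genotype, and the FosBcKO 6 h libraries formed an intermediate step below all WT libraries of that time. Hk2 rose 4.85-fold in WT (95% interval 3.44 to 6.84, FDR = 0.00119), 4.96-fold in Egr1KO (3.36 to 7.31, FDR = 0.00163) and 3.20-fold in FosBcKO (2.38 to 4.31, FDR = 0.000986). These calls held without any single library, with a highest FDR of 0.0215.

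Pfkfb3 encodes the enzyme that makes fructose-2,6-bisphosphate, the activator of phosphofructokinase and so a pacemaker of glycolysis. In WT its level was 90.1, 84.4 and 90.2 CPM at 0 h and 359, 143 and 229 CPM at 6 h. In Egr1KO it was 71.9, 74.4 and 75.8 CPM at 0 h and 194, 312 and 146 CPM at 6 h. In FosBcKO it was 83.2, 72.2 and 72.9 CPM at 0 h and 291, 337 and 151 CPM at 6 h. The 0 h libraries were tight and the 6 h libraries loose, the highest being 2.51, 2.13 and 2.23 times the lowest in WT, Egr1KO and FosBcKO, yet each 6 h library lay above all 9 at 0 h. Pfkfb3 rose 2.56-fold in WT (1.60 to 4.10, FDR = 0.0140), 3.01-fold in Egr1KO (2.09 to 4.34, FDR = 0.00489) and 3.45-fold in FosBcKO (2.19 to 5.42, FDR = 0.00652). The WT call was lost without any of 4 libraries. The FDR was 0.0585 without the WT 0 h library 1, 0.0513 without 0 h library 3 and 0.0691 without 6 h library 3, and the change fell under 2-fold without 6 h library 1 (log2 fold change 0.94).

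**Figure D1:**
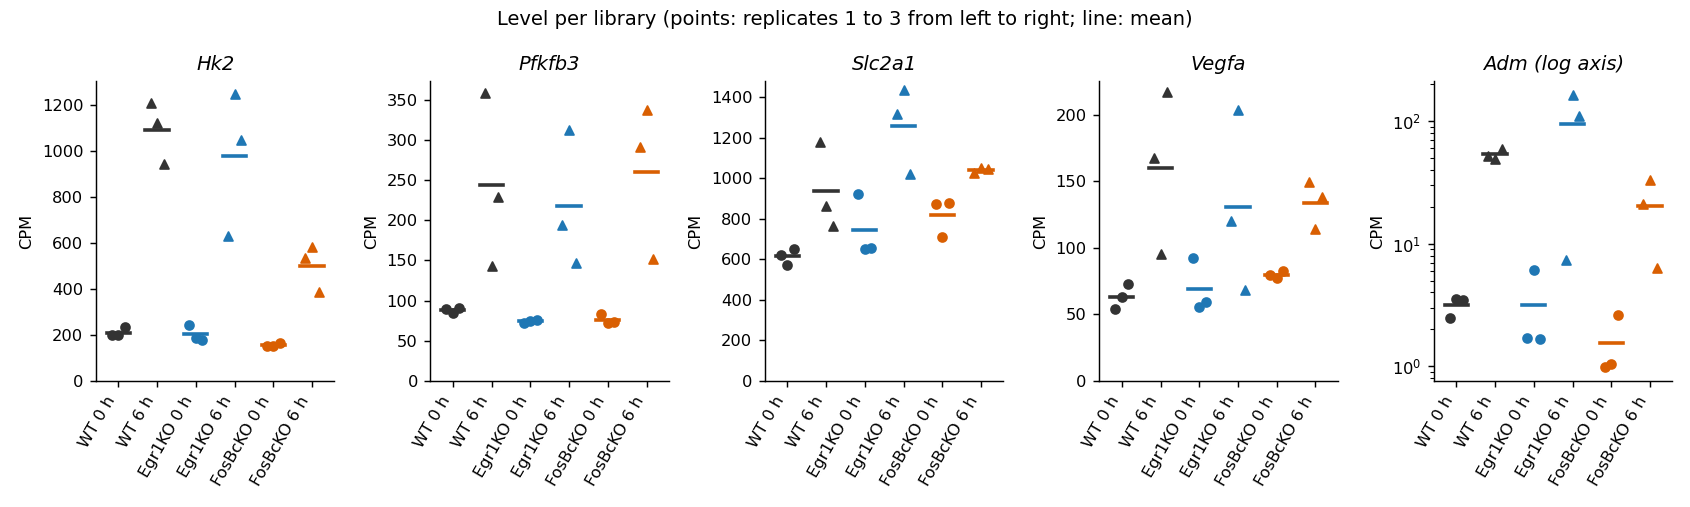
CPM of Hk2, Pfkfb3, Slc2a1, Vegfa and Adm in each of the 18 libraries, by genotype and time (circles 0 h, triangles 6 h, horizontal lines the group means); the Adm axis is logarithmic and the others start at 0. Hk2 at 6 h lay between 388 and 584 CPM in FosBcKO and between 941 and 1209 CPM in WT, and Adm at 6 h spread from 7.32 to 164 CPM in Egr1KO.

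Further down the pathway the picture was flat or slightly downward. Pgk1, phosphoglycerate kinase 1, makes ATP in the second stage of glycolysis. It ranged from 147 to 163 CPM at 0 h and 145 to 153 CPM at 6 h in WT, from 156 to 199 and 114 to 163 CPM in Egr1KO, and from 167 to 193 and 123 to 152 CPM in FosBcKO. The times overlapped in WT and Egr1KO and were separate in FosBcKO. The log2 fold changes were -0.18 (95% interval -0.51 to 0.15), -0.37 (-0.74 to 0.00) and -0.40 (-0.72 to -0.08), with FDRs of 0.374, 0.132 and 0.0726. Without the FosBcKO 6 h library 3 the last of these passed, at -0.55 (FDR = 0.0307).

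Ldha, lactate dehydrogenase A, turns pyruvate into lactate at the end of the pathway and is a textbook HIF1 target. It ranged from 287 to 313 CPM at 0 h and 304 to 345 CPM at 6 h in WT, from 315 to 397 and 246 to 315 CPM in Egr1KO, and from 333 to 386 and 255 to 297 CPM in FosBcKO. The times overlapped in WT, were separated by under 1 CPM in Egr1KO, where they overlapped after TMM scaling over all 18 libraries, and stood apart in FosBcKO. The log2 fold changes were 0.05 (95% interval -0.34 to 0.44, FDR = 0.845), -0.23 (-0.56 to 0.10, FDR = 0.281) and -0.39 (-0.73 to -0.05, FDR = 0.0895). Each upper bound lies well under the 2-fold line, so a doubling of Ldha by 6 h was outside the interval in all 3 genotypes, and the same held for Pgk1.

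Pdk1 encodes pyruvate dehydrogenase kinase 1, which holds pyruvate back from mitochondrial oxidation. It ranged from 49.8 to 55.6 CPM at 0 h and from 30.8 to 34.4 CPM at 6 h in WT. In Egr1KO the ranges were 59.4 to 68.4 CPM and 26.8 to 54.3 CPM, and in FosBcKO 63.8 to 75.9 CPM and 32.2 to 53.3 CPM. In CPM the 6 h libraries lay below the 0 h libraries in each genotype. After TMM scaling over all 18 libraries, however, the Egr1KO 6 h library 1 (60.6) was above the 0 h library 2 (58.7). Pdk1 fell 1.76-fold in WT (log2 fold change -0.81 ± 0.15 SE, FDR = 0.00755) and 1.67-fold in FosBcKO (-0.74 ± 0.19 SE, FDR = 0.0238). In Egr1KO the log2 fold change was -0.70 (95% interval -1.35 to -0.05, FDR = 0.110), and it passed with weakly counted genes kept (FDR = 0.0369) or in one fit of all libraries (FDR = 0.0383). Single 6 h libraries mattered in both knockouts. Without the Egr1KO 6 h library 1 the change was -1.14 (FDR = 0.00125), past 2-fold, and without the FosBcKO 6 h library 3 it was -1.03 (FDR = 0.00218). The FosBcKO result was lost without 0 h library 1 (FDR = 0.0543) or 3 (FDR = 0.0887) or 6 h library 1 (FDR = 0.0558) or 2 (FDR = 0.0715).

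Bnip3 encodes a mitochondrial outer membrane protein that marks mitochondria for removal by autophagy. In WT it ranged from 45.7 to 65.2 CPM at 0 h and from 48.3 to 59.4 CPM at 6 h, so the times overlapped (log2 fold change -0.19, 95% interval -0.58 to 0.20, FDR = 0.433). In Egr1KO it ranged from 66.0 to 77.4 CPM and then from 28.1 to 55.1 CPM, and in FosBcKO from 61.7 to 69.0 CPM and then from 38.3 to 46.9 CPM. Bnip3 fell 1.52-fold in FosBcKO (-0.61 ± 0.15 SE, FDR = 0.0180), a result lost without 0 h library 1 (FDR = 0.0596) or 3 (FDR = 0.0720) or 6 h library 2 (FDR = 0.0510). The Egr1KO change of -0.70 ± 0.22 SE had an FDR of 0.0516 and passed without 6 h library 1 (FDR = 0.0332) or 2 (FDR = 0.0230). It also passed with the exact test (FDR = 0.0309), with DESeq2 (FDR = 0.0334), with weakly counted genes kept (FDR = 0.00393) and in one fit of all libraries (FDR = 0.0115), below 2-fold each time.

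Hif1a itself was lower after injury. The WT libraries read 1164, 1157 and 1102 CPM at 0 h and 930.5, 888 and 802 CPM at 6 h. The Egr1KO libraries read 1502, 1332 and 1301 CPM at 0 h and 926, 655 and 769.9 CPM at 6 h. The FosBcKO libraries read 1421, 1183 and 1379 CPM at 0 h and 633, 719.8 and 1003 CPM at 6 h. No 6 h library reached the lowest 0 h library of its own genotype. Hif1a fell 1.68-fold in Egr1KO (log2 fold change -0.75 ± 0.18 SE, FDR = 0.0254) and 1.69-fold in FosBcKO (-0.76 ± 0.21 SE, FDR = 0.0277), while in WT the change was -0.49 (95% interval -0.96 to -0.02, FDR = 0.109). The Egr1KO result was lost without 0 h library 1, 2 or 3 or 6 h library 3 (FDR 0.0685 to 0.0998), and the FosBcKO result without 0 h library 1 or 3 or 6 h library 2 (FDR 0.0717 to 0.0968). Without the FosBcKO 6 h library 3 the change passed 2-fold, at -1.03 (FDR = 0.00530). The WT change passed without 6 h library 3, at -0.38 (FDR = 0.0306), and with DESeq2 (FDR = 0.0142). These are mRNA values and carry no measure of HIF1A protein.

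**Figure D2:**
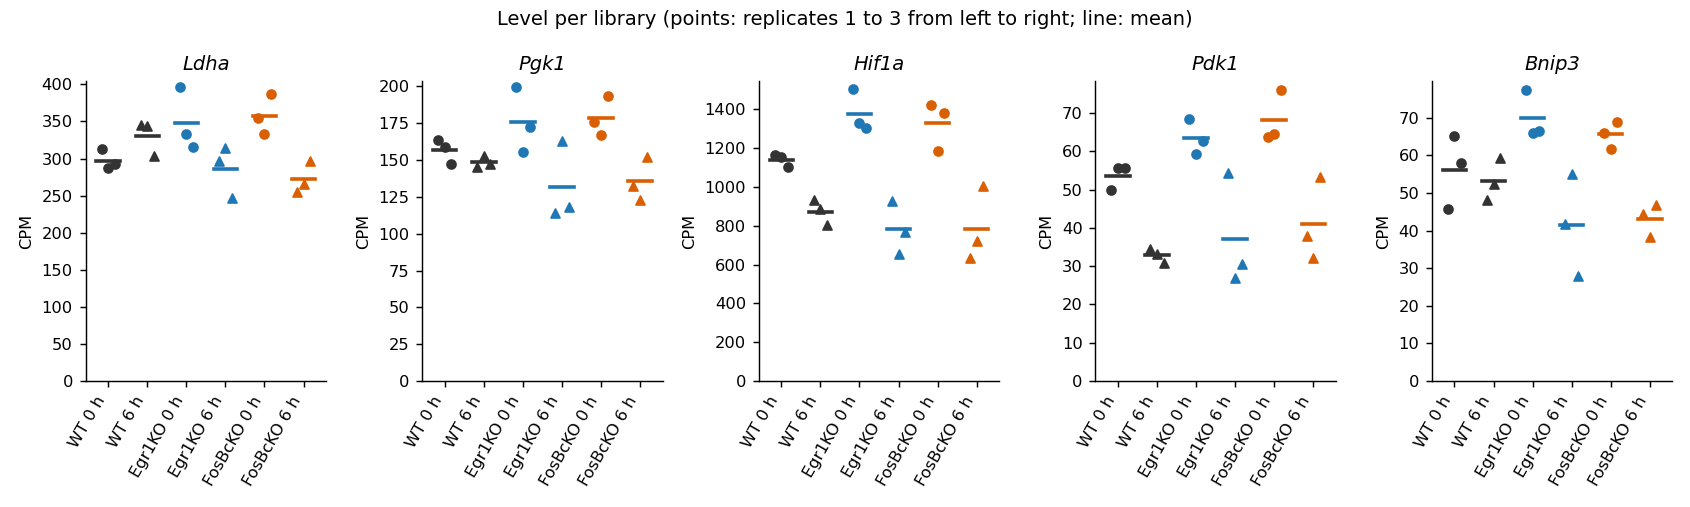
CPM of Ldha, Pgk1, Hif1a, Pdk1 and Bnip3 in each of the 18 libraries (circles 0 h, triangles 6 h, horizontal lines the group means), on linear axes that start at 0. Hif1a was at 1102 to 1502 CPM in the 0 h libraries and at 633 to 1003 CPM in the 6 h libraries, and Pdk1 at 6 h reached 54.3 CPM in the Egr1KO library 1 and 53.3 CPM in the FosBcKO library 3.

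Vegfa and Adm encode secreted signals that act on blood vessels. Vegfa, the main growth factor for vascular endothelium, stood at 53.9, 63.4 and 72.7 CPM at 0 h and at 167, 95.1 and 217 CPM at 6 h in WT. In Egr1KO it stood at 92.2, 55.9 and 59.3 CPM and then at 120.2, 204 and 68.4 CPM. In FosBcKO it stood at 79.7, 77.4 and 82.5 CPM and then at 149, 114 and 138 CPM. The times were separate in WT and FosBcKO and overlapped in Egr1KO, where the 6 h library 3 lay within the 0 h range. Vegfa rose 2.31-fold in WT (95% interval 1.53 to 3.48, FDR = 0.0126) and 1.67-fold in FosBcKO (1.36 to 2.05, FDR = 0.00714). In Egr1KO the ratio was 1.94 (1.08 to 3.45, FDR = 0.0963), and without 6 h library 3 it was called (log2 fold change 1.24, FDR = 0.0496). It passed the FDR below 2-fold with DESeq2 (FDR = 0.0298) and in one fit of all libraries (FDR = 0.0287). The WT call was lost without 0 h library 1 (FDR = 0.0609), and the change slipped just under 2-fold without 6 h library 3 (log2 fold change 0.997). The FosBcKO rise was lost when all 18 libraries shared one fit (log2 fold change 0.72, FDR = 0.103).

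Adm encodes adrenomedullin, a vasodilator peptide, and was the member with the largest change in every genotype. In WT it was at 2.49, 3.56 and 3.50 CPM at 0 h and at 51.6, 49.3 and 58.9 CPM at 6 h. In Egr1KO it was at 1.71, 6.05 and 1.67 CPM at 0 h and at 7.32, 164 and 110.3 CPM at 6 h. In FosBcKO it was at 0.982, 1.04 and 2.62 CPM at 0 h and at 21.2, 33.3 and 6.36 CPM at 6 h. The WT 6 h libraries were tightly grouped, with the highest 1.20 times the lowest, whereas that ratio was 22.3 in Egr1KO and 5.23 in FosBcKO. Adm was sparsely counted before injury, with 10 to 63 counts in a 0 h library, and had 74 to 2269 counts at 6 h. It rose 15.4-fold in WT (95% interval 11.1 to 21.4, FDR = 0.000550), 30.6-fold in Egr1KO (5.51 to 169.8, FDR = 0.0188) and 13.2-fold in FosBcKO (4.13 to 42.3, FDR = 0.0137). The Egr1KO call was lost without 0 h library 1 (FDR = 0.0816) or 3 (FDR = 0.0795) or 6 h library 2 (FDR = 0.0675) or 3 (FDR = 0.0590), and when weakly counted genes were kept in the test (FDR = 0.125). The FosBcKO call was lost without 0 h library 2 (FDR = 0.0548) and when same-numbered libraries were paired (FDR = 0.0507).

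**Figure D3:**
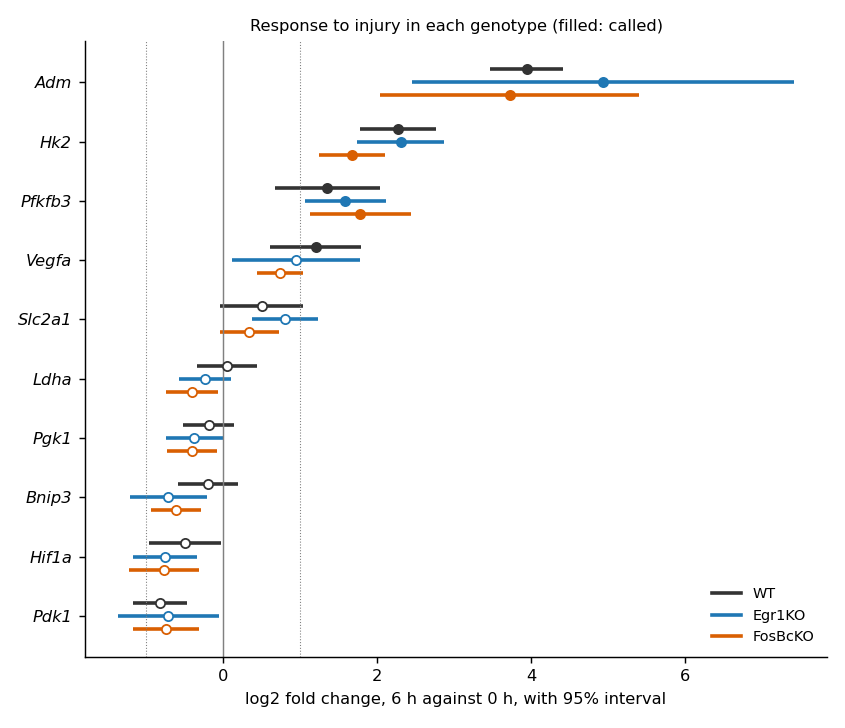
Log2 fold change of each member at 6 h against 0 h in WT, Egr1KO and FosBcKO, with 95% intervals (filled points are called, dotted lines mark 2-fold). Adm, Hk2 and Pfkfb3 are filled in all 3 genotypes, at 1.35 or above, and Ldha, Pgk1, Bnip3, Hif1a and Pdk1 lie between -0.81 and 0.05.

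The 3 genotypes shared no libraries, so their responses could be averaged, an analysis added after the data were seen. In this fit of all 18 libraries Adm was higher by 4.21 on the log2 scale (95% interval 3.04 to 5.38, FDR = 3.25e-05), Hk2 by 2.10 (1.82 to 2.38, FDR = 5.41e-09) and Pfkfb3 by 1.59 (1.19 to 1.98, FDR = 6.60e-06). These were again the 3 members called higher, where 19.3% of the 17469 genes tested were, and none was called lower, where 3.22% were. Vegfa rose by 0.98 (0.61 to 1.34, FDR = 0.000242) and Slc2a1 by 0.56 (0.32 to 0.81, FDR = 0.000661), both under 2-fold. Pdk1 fell, with a log2 fold change of -0.74 (-1.02 to -0.46, FDR = 0.000213), as did Hif1a at -0.66 (-0.90 to -0.41, FDR = 0.000169), Bnip3 at -0.49 (-0.71 to -0.27, FDR = 0.000844) and Pgk1 at -0.31 (-0.49 to -0.13, FDR = 0.00541). Ldha was at -0.18 (-0.36 to 0.00, FDR = 0.0861). At any fold 5 members passed as higher and 4 as lower, beside 29.6% and 22.7% of all genes, so in this larger fit shifts of any size passed for 52.3% of all genes.

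The 6 h libraries differed in how far they had moved from 0 h. Over the 2078 genes other than members that were called higher in WT, the median log2 difference of a library from its own genotype at 0 h was 2.15, 2.00 and 2.62 in the WT libraries. It was 0.81, 2.26 and 1.60 in the Egr1KO libraries and 2.10, 1.63 and 0.97 in the FosBcKO libraries. The genes were picked by their change in the WT libraries, so WT and knockout values are not on equal terms. The Egr1KO library 1 and the FosBcKO library 3 had moved least over these genes. The same libraries had the lowest Adm and Hk2 and the highest Hif1a and Pdk1 of their groups. Other members did not share that order in both knockouts. The lowest Egr1KO library for Pfkfb3, Vegfa and Slc2a1 was library 3, and the lowest FosBcKO library for Vegfa was library 2. For Bnip3, which was lower at 6 h, the highest Egr1KO library was library 2 (55.1 CPM). Pfkfb3 did share the order in FosBcKO, where library 3 was lowest (151 CPM). So did Bnip3, Pgk1 and Ldha, for which FosBcKO library 3 was highest (46.9, 152 and 297 CPM). The WT library 3, which had moved most, had the lowest WT Hk2 and Slc2a1. The Egr1KO library 1 and the FosBcKO library 3 also moved least over the 563 genes called lower in WT, at -0.55 and -0.52, while the other 7 libraries lay between -0.86 and -1.77. What set them apart was not tested. Without both libraries the mean response of Pdk1 passed 2-fold (-1.002, FDR = 3.08e-07), that of Ldha passed the FDR (-0.27, FDR = 0.0251), and those of Adm, Hk2 and Pfkfb3 were 4.49, 2.17 and 1.64.

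**Figure D4:**
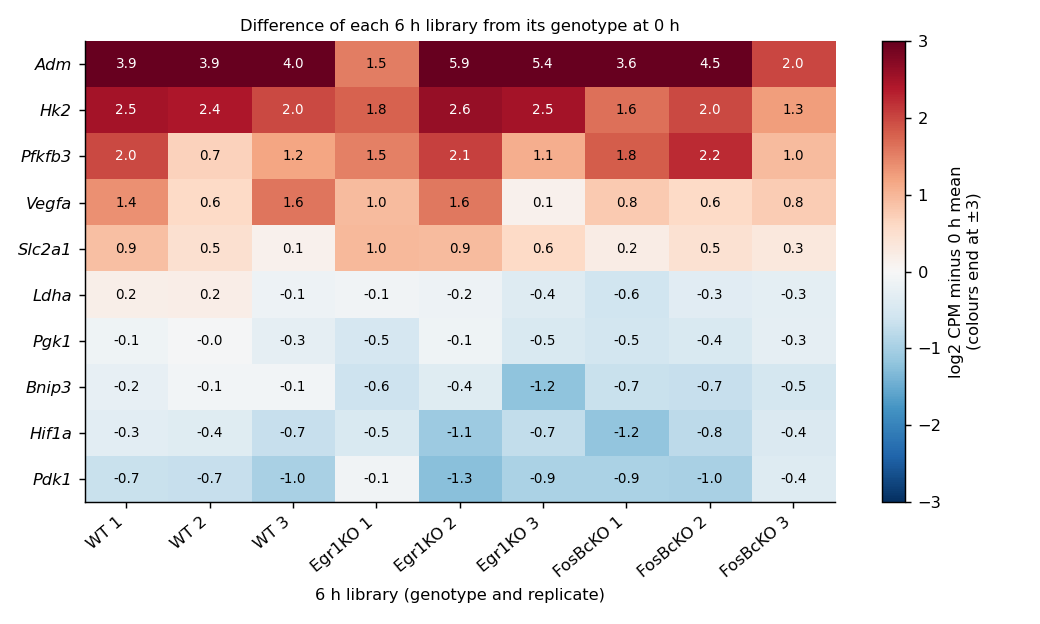
Difference of each 6 h library from the mean of its genotype at 0 h, on the log2 scale of library-normalised CPM, for the 10 members (rows) and the 9 libraries at 6 h (columns); red is higher and blue lower, with the value in each cell. In the Egr1KO library 1 and the FosBcKO library 3, Adm moved by 1.5 and 2.0, against 3.6 to 5.9 in the other 7 libraries.

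Knockout and WT LECs were then compared at each time, to ask whether loss of Egr1 or Fosb altered these genes. Both knockouts were set against the same WT libraries, so their values are given side by side without a comparison of one with the other. At 0 h no member was called in Egr1KO, where 0.41% of the 14373 genes tested were called, nor in FosBcKO, where 0.295% of 14556 were, by the exact test, the quasi-likelihood test or DESeq2. By the exact test there was 1 member at an unadjusted p under 0.05 in Egr1KO (Hif1a, log2 difference 0.30, p = 0.0481, FDR = 0.765). The exact test gave 4 in FosBcKO, namely Hk2 (-0.42, p = 0.00855, FDR = 0.524), Slc2a1 (0.41, p = 0.0203, FDR = 0.718), Pdk1 (0.34, p = 0.0441, FDR = 0.865) and Vegfa (0.33, p = 0.0454, FDR = 0.867). With DESeq2 the Hk2 and Slc2a1 differences passed the FDR (0.0395 and 0.0375) at well under 2-fold. Leaving Adm aside, every interval at 0 h lay within ±0.66 on the log2 scale, inside the 2-fold lines. The Adm intervals, -1.17 to 1.14 in Egr1KO and -2.30 to 0.25 in FosBcKO, crossed them.

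At 6 h the one member that passed the FDR was Hk2 in FosBcKO LECs. It averaged 502 ± 102 CPM (SD, n = 3) there, 1091 ± 137 CPM in WT and 976 ± 315 CPM in Egr1KO. The FosBcKO level was lower than WT by 1.995-fold (log2 difference -0.996, 95% interval -1.64 to -0.35, FDR = 0.0170), a hair short of the 2-fold line, and all 3 FosBcKO libraries lay below all 3 WT libraries. In CPM, Ldha (FDR = 0.868), Bnip3 (FDR = 0.812) and Adm were separated in the same way, and the share of all genes so separated is not given here. In the same comparison 5.41% of the 16155 genes tested were called and 6.26% passed the FDR at any fold, 1 of 10 members among the latter. The call on Hk2 changed with the test. Its log2 difference was past 2-fold and called with DESeq2 (-1.03, FDR = 0.00237), and it missed the FDR with the quasi-likelihood test (FDR = 0.131). It also missed without the WT 6 h library 1 (FDR = 0.148) or 2 (FDR = 0.0615) or the FosBcKO 6 h library 1 (FDR = 0.0738) or 3 (FDR = 0.166), and was called without the WT 6 h library 3 (-1.16, FDR = 0.00102) or the FosBcKO 6 h library 2 (-1.20, FDR = 0.0175). Adm was also lower in FosBcKO (-1.23, 95% interval -2.35 to -0.12, p = 0.0164 by edgeR's exact test) but did not pass (FDR = 0.156). Without the FosBcKO 6 h library 2 it was called (-1.89, FDR = 0.00635).

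In Egr1KO at 6 h no member was called, where 0.736% of the 15618 genes tested were, by the exact test. None was by DESeq2, which called 109 genes. The quasi-likelihood test called 0 genes in all, so it cannot single out the members. At an unadjusted p under 0.05 there was 1, Slc2a1 (log2 difference 0.63, 95% interval -0.04 to 1.30, p = 0.0386 by the exact test, FDR = 0.464). Hk2 in particular differed by 0.03 (-0.68 to 0.74). The Adm difference was 0.996 (-0.78 to 2.78, FDR = 0.765), with the Egr1KO library 1 below every WT library and the other two above. Without that library Adm was called as higher (1.55, FDR = 7.39e-06), a value that rests on 2 Egr1KO libraries.

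**Figure D5:**
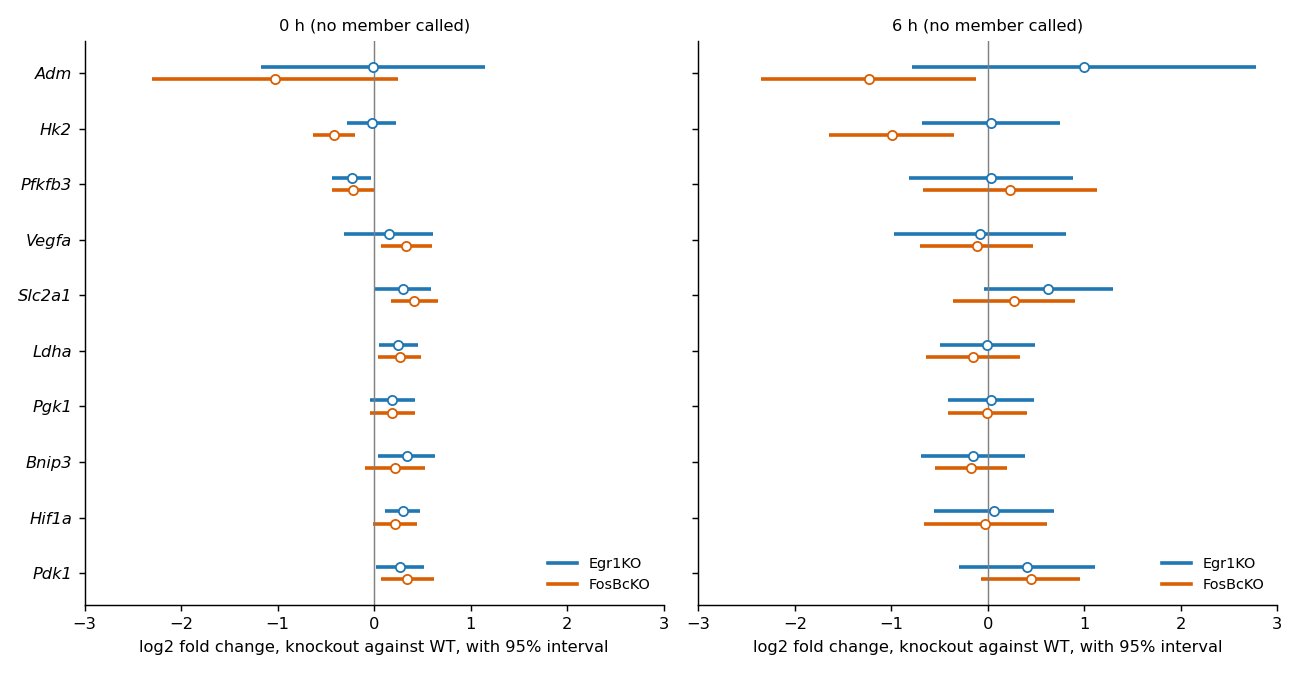
Log2 fold change of each member in Egr1KO or FosBcKO against WT at 0 h (left) and 6 h (right), with 95% intervals; all points are open because no member was called. Hk2 in FosBcKO moved from -0.42 at 0 h to -0.996 at 6 h, and the Adm intervals at 6 h ran from -0.78 to 2.78 in Egr1KO and from -2.35 to -0.12 in FosBcKO.

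Whether the injury response itself differed was tested as the interaction of genotype and time over all 18 libraries. No member was called for Egr1KO or for FosBcKO. Of the 17469 genes tested, 0% were called in either contrast by the quasi-likelihood test, with 1141 and 1171 genes at an unadjusted p under 0.05, while DESeq2 called 2 and 32 genes and no member. At an unadjusted p under 0.05 there were 0 members for Egr1KO and 2 for FosBcKO. The Hk2 response was smaller in FosBcKO than in WT by 0.66 on the log2 scale in these libraries (difference -0.66, 95% interval -1.31 to 0.00, FDR = 0.738). For Ldha the difference was -0.50 (-0.95 to -0.06, FDR = 0.705). In Egr1KO the Hk2 response differed from WT by 0.01 (-0.65 to 0.66), that of Pfkfb3 by 0.21 (-0.73 to 1.15) and that of Bnip3 by -0.53 (-1.07 to 0.00, FDR = 0.766). The Adm differences, 0.97 (-1.65 to 3.59) in Egr1KO and -0.28 (-3.11 to 2.55) in FosBcKO, were too imprecise to tell a like response from one several-fold larger or smaller. Vegfa was called in WT alone, but a difference of its response from WT was not detected, and the intervals include responses more than 2-fold smaller (-0.28, -1.17 to 0.62 in Egr1KO and -0.53, -1.42 to 0.36 in FosBcKO).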

How the data were processed

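RNA of LECs on lens capsules was sequenced as ribodepleted, stranded, paired-end libraries (Takara SMARTer Stranded Pico v2). The authors aligned reads with HISAT2 and deposited raw HTSeq counts per Ensembl gene for each library, taken as separate pools. The processing notes name GRCm39 and the methods an earlier mouse build, so no coordinates are given. HTSeq's summary lines, 34.4 to 48.0% of read pairs, were left out of library totals. Columns of per-sample values left unused numbered 0.

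Counts were analysed with edgeR 4.0.16 in R 4.3.3, using filterByExpr, TMM scaling and robust dispersions, with Benjamini-Hochberg adjustment over all genes tested. Times were compared by the quasi-likelihood F-test and genotypes by the exact test (6 libraries each, as in the study's methods), with standard errors and intervals for both from the quasi-likelihood fit. The WT comparison of times called 2645 genes here, more than the paper reports at the same FDR and fold. The reason was not tested. Responses were compared by an interaction over 18 libraries. Called genes had an FDR of at most 0.05 and over 2-fold change. The scripts were tested on simulated data. The p-values and intervals measure the spread between pooled libraries.

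All 10 members are named, with every library's value for those called in a comparison and for Hif1a, and ranges for the rest. Members and lists were chosen with earlier results of these data known. Symbols of the members came with their choice. The gene table used here matched 0 of the 55416 IDs, so pathway lists, cell type markers, Egr1, Fosb and sequences were not analysed here. Alternatives were DESeq2 1.42.0, other tests, scalings and filters, a replicate block and leaving out each library.

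Replicate numbers are shared by the groups. Deviations from group means correlated between same-numbered WT libraries of the 2 times for 3 of 3 pairs (0.102 to 0.247). In Egr1KO 1 of 3 and in FosBcKO 2 of 3 pairs exceeded 0.1. The surgery scheme took both capsules of a mouse, so capsules of both times may come from the same mice in each genotype. A pairing is thus plausible, but the labels do not say that equal numbers share mice. Values above 0.1 also occurred between different-numbered libraries of different genotypes (0.359 for FosBcKO 6 h library 1 with WT 6 h library 3). The size of a correlation alone thus does not identify shared mice. The tests reported here carry no pairing. The fit that pairs same-numbered libraries is an alternative that kept the 4 WT calls and lost the Adm call in FosBcKO (FDR = 0.0507).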

Additional observations from a re-analysis of the deposited data

How the results depend on the processing

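Over 1500 alternative values of single members, 1459 stayed called or uncalled as reported, 13 lost a call, 28 gained one and 0 calls reversed direction. The gained calls include those made by dropping the fold minimum. Shifts across the FDR below 2-fold and sign changes of uncalled values are not in these counts. Ldha in WT, for example, went from 0.05 to -0.02 without the WT 6 h library 2. Leaving out single libraries gave 2 to 4 members called at 6 h against 0 h in both WT and Egr1KO. In FosBcKO it gave 2 to 5. For knockout against WT at 6 h it gave 0 to 1 in Egr1KO and 0 to 2 in FosBcKO. Dropping the fold minimum only loosens the rule on the same fits. The counts were then 5 of 10 for the Egr1KO response and 7 for the FosBcKO response, where 21.2% and 21.8% of all genes passed. They were 9 for the mean response, beside 52.3% of all genes, and 1 for FosBcKO against WT at 6 h, beside 6.26%. That last count was also 1 with DESeq2, RLE size factors, TMM without the 10 most abundant genes, no filter and one fit of all libraries, each time Hk2 at -1.01 to -1.07.

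A replicate block, in which same-numbered libraries form pairs, kept 4 members called in WT and 3 in Egr1KO, gave 2 in FosBcKO (Adm, FDR = 0.0507) and 0 in the comparisons of genotypes and of responses. With the block, Hk2 in FosBcKO against WT at 6 h no longer passed the FDR (-1.01, FDR = 0.195). In Egr1KO at 6 h against 0 h, Pdk1 (FDR = 0.0476) and Bnip3 (FDR = 0.0497) passed it below 2-fold. Between genotypes the block joins different mice known to share only a number, so it is no pairing of animals there. Same-number correlations for FosBcKO against WT at 6 h ran from -0.26 to 0.15. Over all genes, FosBcKO against WT at 6 h had 874 calls by the exact test, 437 by the quasi-likelihood test and 86 with the block, and Egr1KO against WT at 6 h had 115, 0 and 0. The causes of these changes were not tested.

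With 3 pooled libraries a group, the 95% intervals of the knockout comparisons at 6 h crossed the 2-fold lines for several members, and Adm had the widest.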
